A study of Mus musculus with 14 samples.

Results

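Genes of the adipocyte lineage were followed in the bone marrow RNA-sequencing libraries: Pparg, Adipoq, Lpl, Fabp4, Plin1, Cd36 and Cfd. They were chosen by name and make up 7 of the 55487 genes in the count tables. Of the 7, 4 were abundant in cultures labelled mesenchymal stromal cells (MSC), which also held macrophage transcripts. These 4 genes read lower in both IL-1β-treated libraries than in both PBS-treated libraries, and the decrease passed the test for Pparg and Cd36. Which cells of the cultures carried them was not tested. The other 3, Adipoq, Plin1 and Cfd, were at or near 0 counts in all 14 libraries. The MSC had been grown from the marrow of wild-type C57BL/6 mice for 21 days in DMEM with 10% FBS, and were then given PBS (2 libraries) or IL-1β at 5 ng/ml (2 libraries) for 72 h. Stem cell-enriched LSK cells, which are Lin-Sca1+c-kit+, and the wider progenitor fraction of LK cells, which are Lin-c-kit+, were sorted from marrow of Jak2 VF/+ mice on a C57BL/6 background after 16 weeks of PBS or IL-1β (0.5 μg/dose, 3 doses per week, intraperitoneally), with 3 PBS and 2 IL-1β libraries in each population. PBS and IL-1β mice alike carried the heterozygous Jak2V617F knock-in allele, switched on by the interferon-inducible Mx1Cre after pI-pC injection, and the cohort for IL-1β injection is described as recipients of such marrow. The MSC carried no Jak2 mutation, were not sorted and differed from the sorted cells in genotype, dose and route, so the MSC and sorted libraries are given side by side and were not tested against each other.

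PPARγ, the protein of Pparg, is the nuclear receptor that drives fat cell differentiation, acting as a heterodimer with RXR on the regulatory regions of lipid genes. Fat cells then take up fatty acids released by lipoprotein lipase (Lpl) through CD36, carry them in the cell on FABP4, store them in droplets coated by perilipin 1 (Plin1), and secrete adiponectin (Adipoq) and adipsin, which is complement factor D (Cfd). Marrow stromal cells are precursors of marrow fat cells, and macrophages also use PPARγ, LPL, FABP4 and CD36, whereas Adipoq and Plin1 are close to restricted to fat cells.

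The regions before the transcription start are shown for the 2 members that fell in MSC, Cd36 and Pparg, and for Adipoq, which stayed near 0, so that the elements named for this pathway can be read in them. RefSeq windows (GRCm38.p6, 250 bases before to 50 after a start) were found for 5 of the 7 members, Cd36, Pparg, Plin1, Cfd and Adipoq, as 7 windows in all. The bases before the start are printed 5′ to 3′ on the strand of the gene. Capitals mark a half-site of the PPAR response element (AGGTCA, in Cd36 on the reverse strand and so read TGACCT) or a CEBP element (TTGCNNAA on either strand).
Cd36, chr5:17835897-17836146, minus strand: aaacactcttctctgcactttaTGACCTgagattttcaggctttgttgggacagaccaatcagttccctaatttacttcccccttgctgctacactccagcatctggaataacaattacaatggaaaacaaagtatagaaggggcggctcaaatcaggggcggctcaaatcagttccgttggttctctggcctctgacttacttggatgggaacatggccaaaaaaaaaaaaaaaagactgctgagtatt
Pparg, chr6:115421816-115422065, plus strand: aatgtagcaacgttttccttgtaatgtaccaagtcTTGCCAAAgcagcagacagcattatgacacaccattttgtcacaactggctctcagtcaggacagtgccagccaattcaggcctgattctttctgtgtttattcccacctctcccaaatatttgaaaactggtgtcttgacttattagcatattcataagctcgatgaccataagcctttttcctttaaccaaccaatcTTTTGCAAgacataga
Adipoq, chr16:23146286-23146535, plus strand: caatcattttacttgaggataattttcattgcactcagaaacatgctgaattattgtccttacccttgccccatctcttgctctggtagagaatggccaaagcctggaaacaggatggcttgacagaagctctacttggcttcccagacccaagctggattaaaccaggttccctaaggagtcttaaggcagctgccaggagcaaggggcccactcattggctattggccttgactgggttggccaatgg
The Cd36 and Pparg stretches lie between the starts of shorter and longer transcripts of those genes, within introns of the longer ones, and the Adipoq stretch lies just before its first exon. The Cd36 half-site spans bases -228 to -223 from the start, and 16.3% of all 32851 windows held such a half-site on either strand. The windows of the 2 other Pparg starts held a half-site as well, at -28 to -23 for the start at 115361144 and at -9 to -4 for that at 115362349, so that 3 of the 7 windows had one. These 2 Pparg half-sites lie after the annotated start of another Pparg transcript, at 115360951 and 115362292, and so not before all annotated transcription. The start of Pparg at 115422066 had CEBP elements at -215 to -208 and at -16 to -9, an element found in 10.8% of windows, and Plin1 held 2 more at -187 to -180 and -58 to -51. The DR1 element of PPAR and RXR, a direct repeat of that half-site (0.0396% of windows), and the NF-κB element (0.411% of windows) were in none of the 7 windows, which says only that these letters were not in these windows.

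All of the genes are protein-coding and were counted over the GRCm38 annotation. Pparg lies at chr6:115360951-115490399, Lpl at chr8:68880491-68907448, Adipoq at chr16:23146536-23158028 and Cfd at chr10:79890853-79892655, all on the plus strand. Cd36 lies at chr5:17781690-17888801, Fabp4 at chr3:10204088-10208576 and Plin1 at chr7:79720218-79732903 on the minus strand. The libraries held 4393233 to 30871055 counted read pairs, and the IL-1β libraries of LSK (4393233 and 8641124) and LK cells (6367352 and 7652483) were all shallower than the PBS libraries of their population (12172400 or more). Of the MSC libraries, PBS replicate 3 had 0 counts of Xist and 2964 counts on the Y chromosome. The other 3 held both, with 325 to 2103 counts of Xist and 972 to 5189 on the Y chromosome. The PBS pair differed by more than 2-fold at 437 of 10433 genes against 3 of 10291 for the IL-1β pair. Nothing in the labels ties the MSC libraries to separate cultures or animals, so p-values measure only the spread between these libraries.

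The MSC cultures were checked against markers. All 16 macrophage markers and 12 of 14 mesenchymal markers passed the filter on low counts in MSC, and their summed levels were 24632 and 29020 CPM for macrophage and 1581 and 3041 CPM for mesenchymal genes in the PBS libraries. CPM is the count of a gene relative to the TMM-normalized total of its library. Cultures labelled MSC thus held macrophage as well as mesenchymal transcripts, among the former Lyz2 at 4794 and 7124 CPM. Of 10 fat cell markers outside the 7 genes, 3 passed the filter, and their list summed to 28.2 and 36.3 CPM with PBS. Lipe, which is not restricted to fat cells, made up most of that sum, with 164 to 1200 counts over the 4 libraries. Plin4 had 34 to 130 counts and Trarg1 2 to 59. Acvr1c, Cidec and Lep were at 0 counts in all 4 libraries, Slc2a4 had 1 count over the 4, and Adrb3, Retn and Tshr had 0 to 7 counts a library. In bulk RNA, fewer cells of one type and less RNA per cell cannot be told apart.

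Per length, Lpl and Cd36 stood among the most abundant transcripts of PBS-treated MSC. Lpl, the secreted enzyme that frees fatty acids from lipoprotein triglyceride, was at 331 and 700 FPKM (CPM per kilobase of counted length). It ranked 73 of 55487 genes by the mean, with all ranks taken without TMM scaling. Its counted length was 10478 bases, and its annotated transcripts include some with retained introns. Cd36, the fatty acid and scavenger receptor, was at 356 and 378 FPKM, rank 106. Fabp4, the cytosolic fatty acid carrier, was at 100.1 and 94.3 FPKM, rank 484, over a counted length of 4489 bases that spans the whole gene, introns included. Pparg was at 25.0 and 23.7 FPKM, rank 2046. Adipoq ranked 11866 at 1.21 and 0.109 FPKM, Cfd 13294 at 0.361 and 0.326 FPKM, and Plin1 17334 at 0.0716 and 0.0323 FPKM. The genes therefore fell into 4 that were abundant and 3 that were close to 0, and 4 of 7 reached a mean of 1 CPM in PBS-treated MSC.

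**Figure D1:**
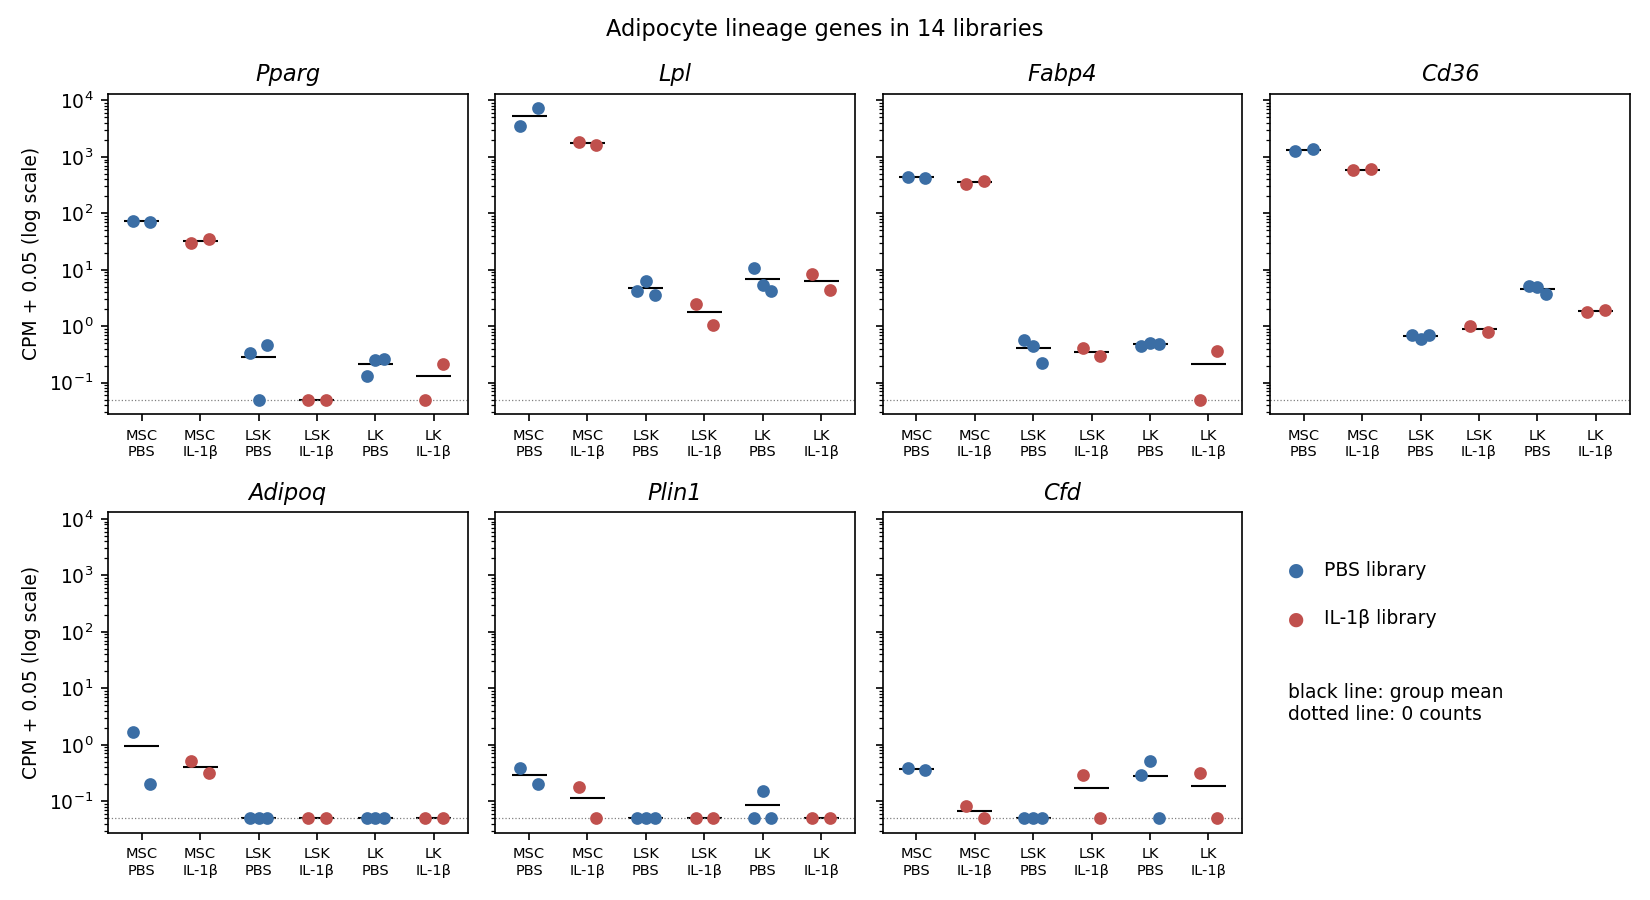
Level of each of the 7 genes in each library, as CPM + 0.05 on a log axis, by cell population and treatment (blue, PBS; red, IL-1β; black lines, group means; dotted line, 0 counts). Pparg, Lpl, Fabp4 and Cd36 lie far higher in the 4 MSC libraries than in the 10 sorted libraries, and Adipoq, Plin1 and Cfd lie below 2 CPM everywhere.

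To ask how IL-1β acted on these genes in MSC, the 2 IL-1β libraries were compared to the 2 PBS libraries. Of the 7 genes, 4 had enough counts to be tested, 2 were called lower and 0 higher. A gene was called when the quasi-likelihood test of edgeR, with p-values adjusted by Benjamini-Hochberg over the 13239 genes tested, gave an adjusted p under 0.05 with a log2 fold change over 0.5 in size, and 11.4% of all tested genes were called, 4.31% lower. All 4 tested genes were lower in both IL-1β libraries than in both PBS libraries, as were 29.8% of all genes tested. The median log2 fold change of the 4 was -1.15, against 0.00 over all genes.

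Pparg stood at 73.9 and 69.9 CPM in the PBS libraries and at 29.7 and 34.8 CPM in the IL-1β libraries. The IL-1β-treated cultures thus held 44.7% of the PBS level of the Pparg transcript, with no overlap between treatments (log2 fold change -1.16, SE 0.12, adjusted p = 0.00598, edgeR). Which cells of the cultures carried this transcript was not tested. Cd36 stood at 1278 and 1358 CPM with PBS and at 585 and 606 CPM with IL-1β. Its libraries were also tight within each treatment, and IL-1β left 45.2% of the PBS level (log2 fold change -1.15, SE 0.11, adjusted p = 0.00467, edgeR). With either IL-1β library left out, neither gene was called: the log2 fold change of Pparg was -1.05 without IL-1β replicate 1 and -1.29 without replicate 2 (adjusted p = 0.155 and 0.111), and that of Cd36 was -1.12 and -1.18 (adjusted p = 0.171 and 0.161, edgeR). In those fits only 16 of all genes were called, all higher, and the spread came from the PBS pair alone. Both genes were called without either PBS library, PBS replicate 3 included, but there the spread came from the tighter IL-1β pair alone. Those calls therefore say little about the spread between PBS libraries. Without PBS replicate 2 or 3 the log2 fold change was -1.14 or -1.22 for Pparg and -1.19 or -1.10 for Cd36.

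Lpl stood at 3472 and 7335 CPM with PBS and at 1854 and 1652 CPM with IL-1β. The PBS libraries differed by more than 2-fold from each other, yet both were above the IL-1β libraries. The fitted level with IL-1β was 32.4% of PBS (log2 fold change -1.62, SE 0.37), and it did not pass edgeR's test (adjusted p = 0.0572). The call depended on the tool and on the libraries: DESeq2 (adjusted p = 0.0172) and limma-voom (adjusted p = 0.0309) called Lpl lower, and so did edgeR without PBS replicate 2 (log2 fold change -2.07, adjusted p = 4.2e-10) and without PBS replicate 3 (-0.99, adjusted p = 8.4e-06), where the spread came from the IL-1β pair alone. Fabp4 stood at 449 and 423 CPM with PBS and at 337 and 373 CPM with IL-1β. The Fabp4 libraries did not overlap, but the difference was small, with 81.2% of the PBS level (log2 fold change -0.30, SE 0.11, adjusted p = 0.142, edgeR, not called). Adipoq had 10 and 2 counts with PBS against 14 and 3 with IL-1β, Plin1 2 and 2 against 4 and 0, and Cfd 2 and 4 against 1 and 0. These 3 genes were too low to be tested, and a change in them was not detectable at this depth, where 3 counts over the pooled PBS libraries equal 0.158 CPM.

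**Figure D2:**
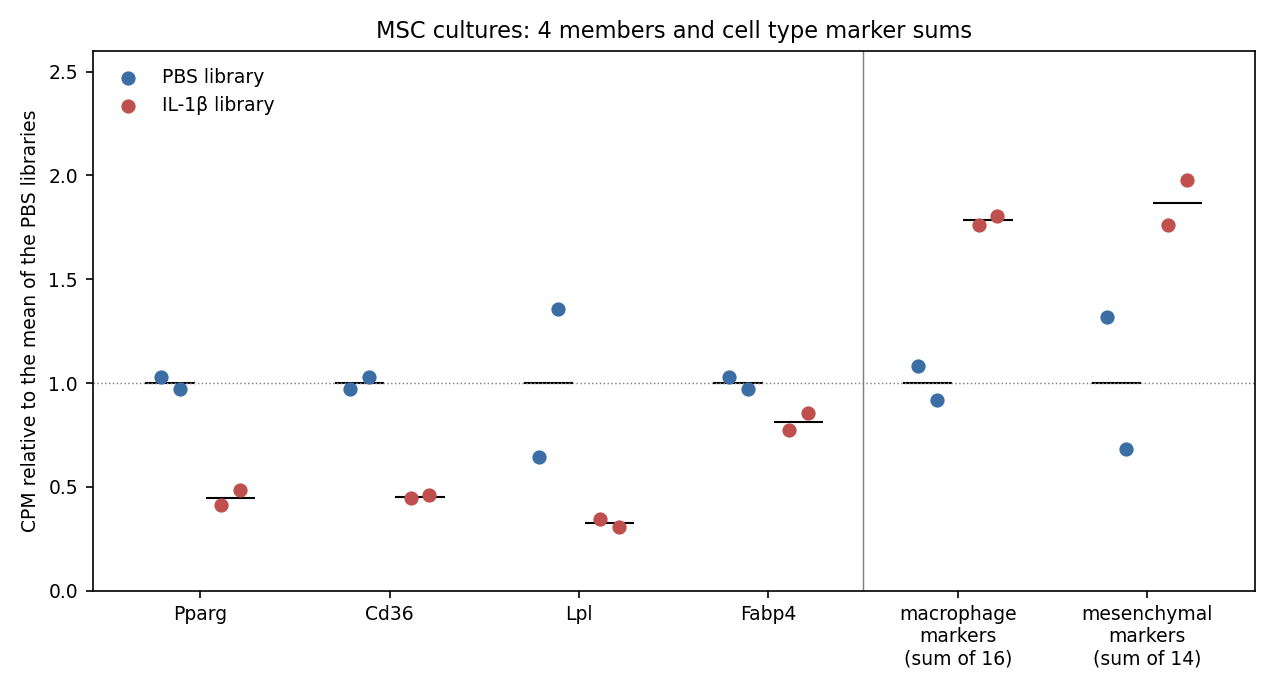
Level of 4 adipocyte lineage genes and the summed level of 2 marker lists in each MSC library, as CPM divided by the mean of the PBS libraries (blue, PBS; red, IL-1β; black lines, group means). All 4 genes lie lower in both IL-1β libraries than in both PBS libraries, while both marker sums lie higher.

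Among the markers of the cultures, macrophage genes had the most calls. Of the 16 macrophage markers, IL-1β-treated MSC had 8 called higher and 0 called lower, including Lyz2 (lysozyme; 7124 and 4794 CPM against 19845 and 20776 CPM), Cd14 (the LPS co-receptor) and Adgre1 (F4/80), and their sum was 47249 and 48435 CPM with IL-1β. The mesenchymal sum was 4067 and 4565 CPM with IL-1β, with 2 of 12 tested genes called higher, Dcn (decorin) and Vcam1, and 0 lower. Of the 3 tested fat cell markers outside the 7 genes, 2 were called higher and 0 lower, namely Lipe and Trarg1 (0.333 and 0.526 CPM against 1.93 and 2.56 CPM, log2 fold change 2.26, SE 0.52, adjusted p = 0.0464, edgeR), and the list summed to 43.8 and 45.9 CPM with IL-1β. Trarg1 had only 2 and 7 counts with PBS and passed the filter through its IL-1β libraries, so the size of its change is imprecise. Osteoblast and endothelial lists had 3 tested genes each and 0 called. Camp, 1 of the 2 neutrophil granule genes tested, and the platelet factor Pf4, 1 of the 2 megakaryocyte genes tested, were called higher, and neither of 2 erythroid genes was called. Camp stood at only 0.167 and 0.150 CPM with PBS and also passed the filter through its IL-1β libraries. Without either IL-1β library, 0 macrophage, mesenchymal and fat cell markers were called. The part of cell composition in the decrease of Pparg and Cd36 was not tested.

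No neighbour named here was called lower in MSC. Sema3c, the nearest protein-coding gene to Cd36 on its lower side at 51421 bases, was called higher in IL-1β-treated MSC (log2 fold change 1.83, SE 0.22, adjusted p = 0.00865, edgeR), opposite in direction to Cd36. Of the neighbours of Lpl, Ints10 had a log2 fold change of -0.17 (SE 0.22) and was not called. Slc18a1, on the other side, had one of -0.99, the same sign as Lpl, and was not called (SE 0.41, adjusted p = 0.171, edgeR). The neighbours Rfc4, St6gal1, Kif7, Pex11a and Med16 were tested and not called, and Syn2, Fabp9, Fabp12, Gnat3 and Elane were too low to be tested in MSC.

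Genes that act with the 7 were then read from lists of related genes by role, of which 87 of 110 genes were tested in MSC. Of these, 26 were called higher and 6 lower, beside 7.14% and 4.31% of all genes, and their median log2 fold change was 0.17. With upper-quartile factors in place of TMM the same counts were 21 and 7, and those over all genes 817 higher and 831 lower instead of 945 and 570. Without either IL-1β library 0 related genes were called, and without PBS replicate 2 or 3 the lower count was 14 or 11.

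Of 9 tested adipogenic transcription factors, 4 were called higher and 0 lower. The early adipogenic factor Cebpd stood at 39.5 and 41.5 CPM with PBS and at 96.7 and 103.1 CPM with IL-1β (log2 fold change 1.30, SE 0.10, adjusted p = 0.00279, edgeR). Cebpb, its partner, stood at 140.0 and 148.2 CPM against 288.8 and 301.5 CPM. Zfp467 rose by 0.70 on the log2 scale, and so did Rxra, the partner of PPARγ, by 0.53. The transcripts of early CEBP factors were therefore up in the same libraries where Pparg was down. Cebpa overlapped between treatments and was not called (log2 fold change -0.08, SE 0.18, adjusted p = 0.797, edgeR). Among 8 tested inhibitors of adipogenesis, the Notch target Hes1 (11.2 and 11.3 CPM against 3.73 and 3.79 CPM) and the nuclear receptor Nr2f2 were called lower and Klf2 higher. Dlk1, the preadipocyte factor, had a log2 fold change of -1.73 (SE 0.44, adjusted p = 0.0564, edgeR, not called).

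Among genes that work with Lpl and lipoprotein receptors, 7 were tested, 1 was called higher and 0 lower. Among the 10 genes of fatty acid uptake and binding, 2 were called higher, the acyl-CoA synthetases Acsl1 and Acsl4, and 0 lower. Fabp5, the macrophage and epidermal relative of Fabp4, had a log2 fold change of 0.38 (SE 0.11, adjusted p = 0.0841, edgeR, not called), opposite in sign to Fabp4. Of 8 tested scavenger receptors, the class to which Cd36 belongs, 4 were called higher and 0 lower. Marco stood at 0 and 0.376 CPM with PBS and at 21.0 and 25.2 CPM with IL-1β, and so passed the filter through its IL-1β libraries. Mrc1 and Cxcl16 rose by 1.09 and 1.01 on the log2 scale. Cd36 thus fell while no tested scavenger receptor on the list was called lower.

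On the droplet side, 7 of 12 genes were tested, and Plin2, the widely expressed perilipin, was called lower while Bscl2 (seipin) was called higher. Plin2 stood at 1075 and 1356 CPM with PBS and at 538 and 532 CPM with IL-1β (log2 fold change -1.18, SE 0.15, adjusted p = 0.00935, edgeR), a decrease close in size to that of Pparg and Cd36. Of 4 tested lipolysis genes, the monoglyceride lipase Mgll fell (167.4 and 248.1 CPM against 73.2 and 65.9 CPM) and hormone-sensitive lipase Lipe rose by 0.61 on the log2 scale. Synthesis genes went the other way, with 7 of 13 called higher and 0 lower. Dgat2, which makes triglyceride, rose from 1.17 and 0.526 CPM to 6.48 and 6.79 CPM, and the fatty acid synthase Fasn from 84.4 and 59.7 CPM to 164.5 and 149.3 CPM. Dgat2 passed the filter through its IL-1β libraries. Scd1, the desaturase, rose by 1.08 on the log2 scale.

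Among 9 genes of PPAR and LXR lipid handling, Pdk4 and Nr1h3 (LXRα) were called lower and the cholesterol exporter Abca1 higher. Pdk4, a PPAR target that spares glucose, stood at 25.8 and 13.98 CPM with PBS and at 5.63 and 7.31 CPM with IL-1β. Abca1 rose from 110.1 and 107.9 CPM to 365.0 and 327.0 CPM, so the genes of this list did not all move in 1 direction. Of 8 tested adipokine and insulin or adiponectin response genes, Nampt was called higher and 0 lower. Cfd belongs to the alternative complement pathway, and 3 of 4 tested genes of that pathway rose. C3 stood at 15.7 and 33.3 CPM against 283.2 and 301.4 CPM, and properdin (Cfp) rose by 2.23 on the log2 scale, while Cfd was close to 0 counts.

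**Figure D3:**
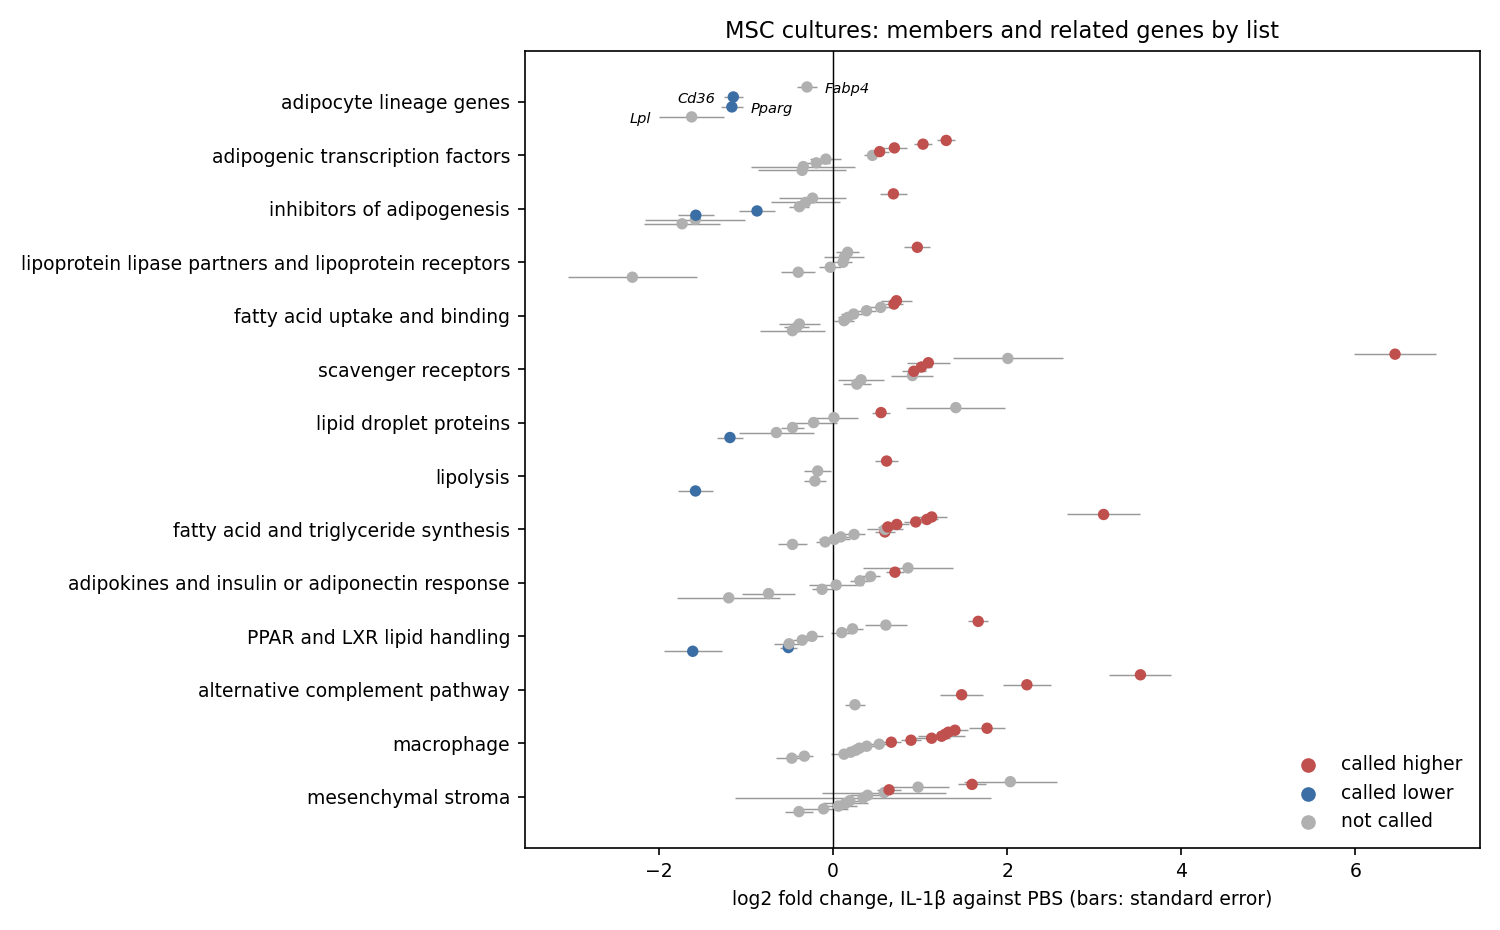
Log2 fold change of IL-1β against PBS in MSC for each tested gene of the 7, of the 11 related lists and of 2 marker lists, with its standard error (red, called higher; blue, called lower; grey, not called). Pparg and Cd36 are called lower and Lpl and Fabp4 lie below 0 without a call, whereas the called genes of synthesis, scavenger receptors and complement lie above 0.

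In the sorted cells the 7 genes were low. Adipoq had 0 counts in all 10 LSK and LK libraries, which allows a level of up to 0.0263 CPM over the pooled 114081232 counts, with counting error alone considered. Plin1 had 2 counts in 1 LK library and 0 in the other 9, Cfd 16 counts in all, Pparg 20 and Fabp4 41. Pparg had 0 counts in both IL-1β-treated LSK libraries and in 1 of 3 PBS libraries (4, 0 and 7 counts), and the depth did not allow a test. Lpl and Cd36 were the only members to pass the filter in any sorted comparison.

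Cfd lies 2637 bases from Elane, the neutrophil elastase gene. Elane was called higher with IL-1β in LSK (log2 fold change 3.32, SE 0.39, adjusted p = 0.0115) and LK cells (1.80, SE 0.37, adjusted p = 0.0374, edgeR), while Cfd stayed at 0 to 9 counts in every sorted library. In LSK cells Elane was not called without either IL-1β library.

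In LSK cells, 1 of the 7 genes, Lpl, could be tested and 0 were called, beside 0.632% of 13132 genes (0.32% higher and 0.312% lower). Lpl stood at 4.24, 6.26 and 3.51 CPM with PBS and at 2.43 and 0.991 CPM with IL-1β, the last from 4 counts. All PBS libraries lay above the IL-1β libraries, as at 21.5% of all genes, and the difference did not pass the test (log2 fold change -1.40, SE 0.78, adjusted p = 0.362, edgeR). In LK cells, Lpl stood at 10.7, 5.44 and 4.15 CPM with PBS and at 8.47 and 4.33 CPM with IL-1β, so the groups overlapped (log2 fold change -0.06, SE 0.48, adjusted p = 0.949, edgeR). The sign of that difference turned with limma-voom (0.05), without PBS replicate 1 (0.43) and without IL-1β replicate 2 (0.32). By group mean, Lpl ran in the order PBS-treated MSC, IL-1β-treated MSC, LK with PBS, LK with IL-1β, LSK with PBS and LSK with IL-1β, and the ranges of both LK groups and of LSK with PBS overlapped.

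Of the 2 members with enough counts to be tested between PBS-treated LK and LSK cells, Cd36 was called. It stood at 0.657, 0.547 and 0.643 CPM in PBS-treated LSK cells and at 5.08, 4.83 and 3.65 CPM in PBS-treated LK cells. The LSK values came from only 9, 7 and 11 counts. Cd36 thus passed the filter through its LK libraries, and the size of the difference is imprecise. Every LK library lay above every LSK library, as at 24.2% of all genes, and the 7.38-fold difference was called (log2 fold change 2.88, SE 0.52, adjusted p = 0.00392, edgeR), beside 31.2% of 12737 genes called and 12.8% called higher. Lpl overlapped between the same libraries and was not called (log2 fold change 0.57, SE 0.46, adjusted p = 0.387, edgeR).

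With IL-1β, Cd36 in LK cells stood at 1.72 and 1.92 CPM, below all 3 PBS libraries, as were 22.2% of all genes. The level was 40.4% of PBS (log2 fold change -1.31, SE 0.39), and the difference missed the threshold (adjusted p = 0.0701, edgeR, with 0 of 2 tested members called beside 9.34% of 12835 genes, 6.77% higher and 2.57% lower). The call depended on the setting. Cd36 passed with LK PBS replicate 3 left out (log2 fold change -1.44, adjusted p = 0.0138, edgeR) and with the replicate block. Its adjusted p rose to 0.151 with limma-voom and to 0.315 in the edgeR joint fit of LSK and LK libraries. Dropping PBS replicate 1 or 2 instead gave log2 fold changes of -1.21 and -1.26, which missed the threshold (adjusted p = 0.203 and 0.173, edgeR). In IL-1β-treated LSK cells Cd36 had 8 and 3 counts (0.972 and 0.743 CPM) against 7 to 11 with PBS, too few to test. By group mean, Cd36 ran in the order PBS-treated MSC, IL-1β-treated MSC, LK with PBS, LK with IL-1β, LSK with IL-1β and LSK with PBS, and the 2 LSK groups rested on 11 counts or fewer per library.

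Like Cd36, erythroid genes were highest in PBS-treated LK cells, lower in IL-1β-treated LK cells and lowest in both LSK groups. All 9 erythroid markers, among them the transcription factors Gata1 and Klf1, were called higher in PBS-treated LK than LSK cells. Their summed level with PBS was 436 to 570 CPM in LSK and 3365 to 4210 CPM in LK. The IL-1β-treated LSK sums, 538 and 713 CPM, overlapped those with PBS, and 0 of 8 tested markers were called between them. With IL-1β the sum in LK cells was 2309 and 2477 CPM and 4 of 9 were called lower (Gata1, Klf1, Epor and Car1). Neutrophil granule genes rose in the same LK libraries, with 6 of 9 called higher. Of 14 macrophage markers tested in LK cells, Cybb was called higher and Csf1r, Ctss and Mpeg1 lower, and their sum was 358 to 569 CPM with PBS and 444 and 568 CPM with IL-1β. Of 5 megakaryocyte markers, Vwf was called lower. Without LK IL-1β replicate 1, 0 erythroid, macrophage and megakaryocyte markers and 1 neutrophil granule marker were called. The part of these lineage shifts in the Cd36 level was not tested.

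**Figure D4:**
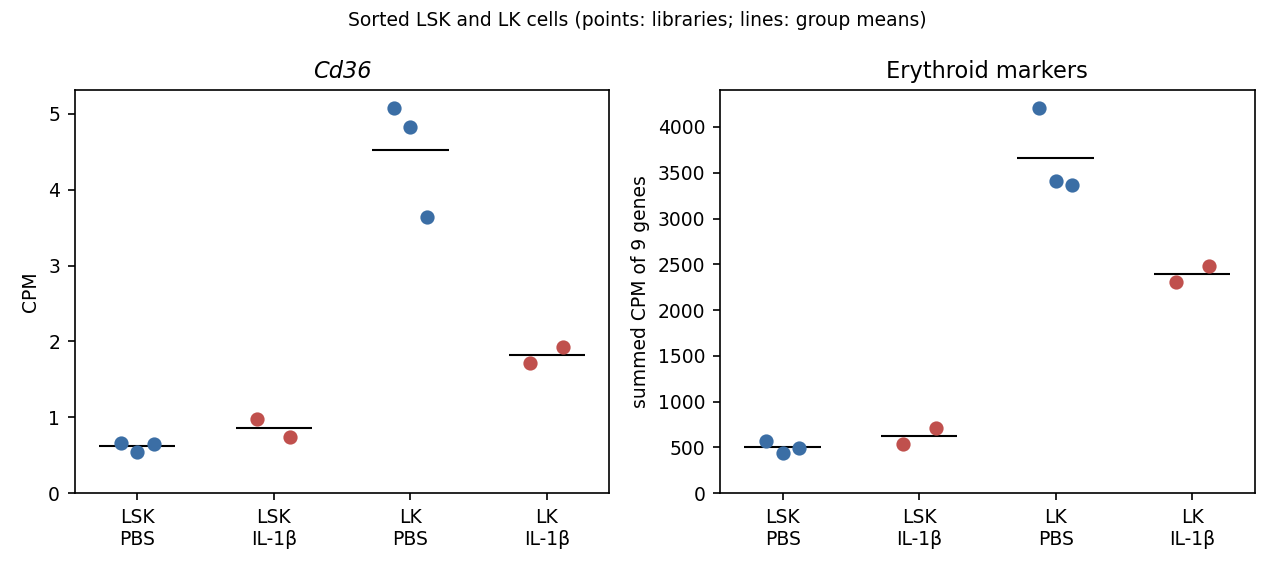
Cd36 (left, CPM) and the summed CPM of 9 erythroid markers (right) in each LSK and LK library (blue, PBS; red, IL-1β; lines, group means). Both are low in LSK libraries, highest in the 3 PBS-treated LK libraries and intermediate in the 2 IL-1β-treated LK libraries.

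Over all 14 libraries, the genes whose level ran most closely with each abundant member were listed among 11051 genes, as a description of libraries that fall into 2 clusters, MSC and sorted cells. For Pparg they were Evl (r = 0.993), Cln8 and Arl8a, and for Lpl Fnip2 (r = 0.992), Atp6v0d2 and Plk2. For Fabp4 they were Gpnmb (r = 0.995), Tmem106a and Atp6v0d2, and for Cd36 Lhfpl2 (r = 0.991), Wsb2 and Tulp4. Since the 2 clusters differ in cell type, culture and depth, these values chiefly rank genes by presence in MSC and absence in sorted cells.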

How the data were processed

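RNA-seq was analysed for 4 MSC, 5 LSK and 5 LK libraries. The deposited values are counts of read pairs per gene. Per the labels and file headers, the authors trimmed reads with fastp 0.20.0, aligned them with HISAT2 2.0.1 to GRCm38, used SAMtools 1.10 and counted reverse-stranded pairs with featureCounts 2.0.2. The methods also name GenomicAlignments. Pairs on several places or genes were not counted by default, so near-identical copies lose reads. A further IL-1β MSC library named in a header was not analysed here.

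Groups and replicate numbers follow the labels. In R 4.3.3, edgeR 4.0.16 was run within each comparison (filterByExpr, TMM, robust glmQLFit, glmQLFTest), with Benjamini-Hochberg adjustment over all tested genes. Standard errors are the log2 fold change divided by the square root of F. FPKM divides CPM by the counted gene length. Totals of 4393233 to 30871055 pairs limit the precision of low genes, and floors cover counting error only. The members and lists were chosen with earlier results of these data known. For each list, up to 3 called genes per direction with the largest change in MSC were named, along with each member's nearest protein-coding neighbours and its 3 most similar genes; other named genes were chosen after their values were seen. Some genes that this rule names are not reported here. Alternatives were DESeq2 1.42.0, limma-voom 3.58.1, other scaling factors, other filters, no fold-change threshold, a joint fit, the replicate block and each library left out. Deviations of the same-numbered PBS libraries of LK and LSK had correlations of 0.23, 0.13 and 0.50. The labels do not say that equal numbers mark the same mouse, so the main LK against LSK test did not pair them. The test code was run on simulated counts with a common dispersion for all genes, which does not copy the unequal spread of the MSC pairs. Figures used matplotlib 3.10.9.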

Additional observations from a re-analysis of the deposited data

How the results depend on the processing

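Pparg and Cd36 in MSC were called under every tool, scaling and filter tried. Both lost the call only without either IL-1β library, where the lone IL-1β library is assumed to vary like the PBS pair. Without either PBS library the spread came from the IL-1β pair alone, the tighter pair. With each MSC library left out in turn, the members called numbered 0 to 3, the related genes called higher 0 to 30 and those called lower 0 to 14. In LK cells the members called numbered 0 to 1 over the libraries left out. The replicate block called 1 LK member, Cd36 (log2 fold change -1.44, adjusted p = 0.0225, edgeR), whereas limma-voom and the joint fit called 0. Deviations of same-numbered PBS and IL-1β libraries had correlations of only -0.10 and 0.06 in LK cells and 0.14 and -0.04 in LSK cells. The block changed no other member call. No paired analysis was possible in MSC because the treatments share only number 2. The Lpl difference in LK cells, -0.06, became 0.0472 with limma-voom, and ranged from -0.64 to 0.43 over the libraries left out, with 0.32 without IL-1β replicate 2; the cause was not tested. Over all genes, the counts called higher and lower in MSC were 1439 and 915 with no filter on low counts and 1956 and 1670 without PBS replicate 2, and in LSK cells 410 and 481 with DESeq2, 19 and 2 with limma-voom and 571 and 676 in the joint fit, against 42 and 41. In LK cells they were 1462 and 869 with the block and 440 and 71 in the joint fit, against 869 and 330, and 32 and 2 without IL-1β replicate 1 or 256 and 57 without IL-1β replicate 2. Depth limits Adipoq, Plin1 and Cfd in all libraries, and Pparg and Fabp4 in sorted cells.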

Other observations

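In IL-1β-treated LK cells, 13 of the 72 related genes tested were called higher and 2 lower, where 6.77% of all tested genes were called higher and 2.57% lower. The 3 CEBP factors of the list rose there, with Cebpa at 84.9 to 150.04 CPM in the PBS libraries and 240.9 and 320.2 CPM with IL-1β, Cebpb at 20.3 to 25.2 CPM against 64.3 and 67.9 CPM, and Cebpd at 10.4 to 16.3 CPM against 33.3 and 36.9 CPM. The droplet coat gene Plin3 and the lipase activator Abhd5 also rose, by 1.87 and 1.04 on the log2 scale, while Scd1 and the phosphatidate phosphatase Lpin1 fell by 2.03 and 1.04. Without IL-1β replicate 1, 4 related genes were called higher and 0 lower, and without replicate 2, 7 and 0. Cebpb and Plin3 were called without each of the LK libraries in turn, whereas Cebpa, Cebpd, Scd1 and Lpin1 were not called without either IL-1β library, nor Abhd5 without IL-1β replicate 1.

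Dgat2, the triglyceride-synthesizing acyltransferase, was called higher with IL-1β in all 3 populations, though not in MSC or LSK cells without either IL-1β library. It stood at 0.391 to 1.29 CPM with PBS and 15.1 and 24.9 CPM with IL-1β in LSK cells (log2 fold change 4.41, SE 0.60, adjusted p = 0.0171, edgeR), and at 1.80 to 2.43 CPM against 67.1 and 85.1 CPM in LK cells (5.17, SE 0.19, adjusted p = 2.5e-05, edgeR). In LSK cells it was the 1 related gene of 71 tested that was called higher, and Zfp467 (log2 fold change -3.79) was the 1 called lower. Neither was called without either IL-1β library, where 6 and 3 of all genes were called higher and 0 lower. These genes were singled out after their values were seen.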
